A study of Mus musculus with 6 samples.

Results

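The genes described are those of the 3 D-type cyclins (Ccnd1, Ccnd2 and Ccnd3), of the kinases Cdk4 and Cdk6 that they activate, and of the survival factor BCL2 (Bcl2). They were followed through ChIP-seq peaks of GLI3R, the repressor form of the Hedgehog transcription factor GLI3, in cardiac progenitors that had been differentiated out of mouse embryonic stem cells. A peak belonged to a gene when its summit lay inside the gene's mm10 interval or within 100 kb of it. By that rule 8 of 3640 peaks of the doxycycline list and 4 of 4379 peaks of the untreated list belonged to the 6 genes, out of 21883 protein-coding genes on the assembly.

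All cells came from the GLI3R-FTA line of the A2Lox.cre strain and were harvested on day 6. The doxycycline group received 500 ng/ml of the drug for 24 h from day 5, which induces the tagged GLI3R, and the untreated group received none. Each group had 2 streptavidin pull-downs, which recover the protein by its Avi tag, and 1 input. The titles name GLI3R, while the protocol text speaks of GLI1, and the titles were followed. Neither the promoter of the transgene nor the number of clones is given in the labels. The data were 1 peak list per condition, with no value per pull-down, so no value has a replicate error and no test between conditions was possible. Peak lists hold no expression, and the labelled cell type was not checked against its markers.

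Cyclin D binds CDK4 or CDK6, and the complex phosphorylates the retinoblastoma protein, which frees E2F factors to start S phase. INK4 proteins block these kinases. BCL2 sits on the outer mitochondrial membrane and holds back the pore-forming proteins BAX and BAK. Ccnd1, Ccnd2 and Bcl2 are known as genes that respond to Hedgehog signalling in several tissues and tumours, and GLI3R is known to hold such genes down when the ligand is absent.

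In the peak lists, Cdk6, Bcl2 and Ccnd2 each had a doxycycline peak of more than 10-fold enrichment inside the gene or within 2 kb of it, at 12.3-fold, 10.8-fold and 10.2-fold. No untreated peak overlapped any of the 3, or any other doxycycline peak of the 6 genes. The share of the whole doxycycline list that overlaps an untreated peak is not given here. Ccnd3 and Cdk4 had 1 weaker doxycycline peak each, at 7.31-fold and 5.85-fold, and both summits lay inside other genes. Ccnd1 had none. The 4 untreated peaks belonged to Ccnd1, Ccnd2, Ccnd3 and Bcl2 and ran from 3.93-fold to 7.07-fold.

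The sequences under these peaks could be shown where a RefSeq promoter window, which reaches from 250 bases before a listed start site to 50 after it, ran under a deposited peak (build GRCm38.p6, the assembly of mm10). Windows were found for 4 of the 6 genes (Bcl2, Cdk6, Cdk4 and Ccnd3, the last with 2), and not for Ccnd1 and Ccnd2. Of these 5 windows, the Bcl2 window alone was overlapped by a peak, the 10.8-fold doxycycline peak. Over all genes 0.353% of 32851 windows were overlapped by a doxycycline peak and 0.0274% by an untreated peak. The window of Bcl2 is shown because 249 of its 300 bases lay under the peak (chr1:106714241-106714540, minus strand). The second sequence is a window of Gm36470, a non-coding RNA gene that RefSeq lists on the strand opposite to Cdk6, and it is shown because 201 of its bases lay under the 12.3-fold Cdk6 peak (chr5:3342203-3342502, minus strand). Both run 5′ to 3′, and capitals mark the bases under the peak.
Bcl2: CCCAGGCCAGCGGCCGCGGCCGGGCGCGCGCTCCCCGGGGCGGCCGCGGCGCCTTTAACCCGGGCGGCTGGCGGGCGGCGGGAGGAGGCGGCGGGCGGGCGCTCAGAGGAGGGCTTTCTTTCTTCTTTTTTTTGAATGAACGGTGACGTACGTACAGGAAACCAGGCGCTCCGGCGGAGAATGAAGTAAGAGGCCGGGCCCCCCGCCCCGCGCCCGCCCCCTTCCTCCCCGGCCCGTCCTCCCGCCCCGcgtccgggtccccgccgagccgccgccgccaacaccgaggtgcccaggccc
Gm36470: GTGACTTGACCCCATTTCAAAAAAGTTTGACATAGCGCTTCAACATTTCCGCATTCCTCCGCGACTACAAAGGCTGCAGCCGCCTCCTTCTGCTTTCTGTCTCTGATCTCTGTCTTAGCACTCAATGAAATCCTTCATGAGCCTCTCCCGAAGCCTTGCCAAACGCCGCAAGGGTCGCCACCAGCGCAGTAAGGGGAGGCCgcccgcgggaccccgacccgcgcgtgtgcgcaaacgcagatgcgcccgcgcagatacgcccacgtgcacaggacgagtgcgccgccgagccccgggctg

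The Bcl2 window was 76% G and C with 44 CpG pairs, and the Gm36470 window was 61% G and C with 29. The median over all windows was 52.7%. The GLI consensus GACCACCCA was searched on both strands (TGGGTGGTC on the other). It was in 0 of the 5 windows of the 6 genes and not in the Gm36470 window, also when 1 mismatch was allowed. Of all windows 0.253% held it exactly and 6.74% with at most 1 mismatch. Of the 116 windows overlapped by a doxycycline peak, 5 (4.31%) held it exactly and 39 (33.6%) with at most 1 mismatch, at a median of 66.2% G and C. The 9 windows overlapped by an untreated peak held 0 exact matches and 1 with a mismatch. The Bcl2 summit, at 336 bp upstream of the listed start, and the Cdk6 summit lie outside these windows, so the bases at the summits were not searched.

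Among the cyclins, Ccnd2 had the most peaks. Its stronger doxycycline peak (chromosome 6, 127153233 to 127153579) was enriched 10.2-fold at a −log10 q of 12.4, with its summit 1204 bp beyond the higher-coordinate end of the gene. Over that summit lay 14 fragments, worked back from the authors' values (exact 95% Poisson interval 7.65 to 23.5, counting error only). It ranked 224th by fold in the doxycycline list, and the nearest untreated summit was 29.3 kb away. At the other end of Ccnd2 a summit of each list lay close together. The doxycycline peak there (127124376 to 127124545) had 5.12-fold enrichment and 6 fragments (2.20 to 13.1) at 0.718 kb from the gene. The untreated peak (127124020 to 127124171) had 7.07-fold enrichment and 8 fragments (3.45 to 15.8) at 1.07 kb. Their summits were 355 bp apart and their intervals did not overlap. Ccnd2 was the single member at which the untreated list had a peak within 1 kb of a doxycycline summit.

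Ccnd3 had 1 peak in each list, both beyond neighbouring genes. The doxycycline peak (chromosome 17, 47450290 to 47450546) reached 7.31-fold with 9 fragments (4.12 to 17.1) at 54.6 kb from Ccnd3, inside AI661453. RefSeq lists 4 protein-coding genes nearer to that summit than Ccnd3. The untreated peak (47670353 to 47670497) reached 4.72-fold with 5 fragments (1.62 to 11.7) at 70.7 kb, inside Gm20517 and Usp49, with 9 protein-coding genes nearer. These summits lay on opposite sides of Ccnd3.

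Ccnd1 had 0 doxycycline peaks within 100 kb. The nearest was 182 kb away inside Ano1, at 6.30-fold with 8 fragments. The untreated list held 1 peak (chromosome 7, 144918211 to 144918380) of 5.50-fold with 6 fragments (2.20 to 13.1), at 11.7 kb from Ccnd1 and inside its neighbour LTO1.

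The kinase genes differed in where their peaks lay. Both doxycycline peaks of Cdk6 fell at the lower-coordinate end of the gene interval, with summits 700 bp apart. The stronger (chromosome 5, 3342302 to 3342856) reached 12.3-fold, a −log10 q of 16.8 and 16 fragments (9.15 to 26.0), ranked 108th by fold and was the widest of the 12 peaks at 555 bp. Its summit was 1.23 kb upstream of the Cdk6 start site in the promoter table and 0.414 kb upstream of a Gm36470 start site on the opposite strand. The gene interval starts lower than that Cdk6 site, so the summit counts as inside the gene. The weaker peak (3341879 to 3342051) reached 5.03-fold with 6 fragments (2.20 to 13.1). Cdk6 had 0 untreated peaks within 100 kb, and the nearest untreated summit was 1896 kb from the stronger peak. Cdk4 had 1 doxycycline peak (chromosome 10, 126979496 to 126979704) of 5.85-fold with 7 fragments (2.81 to 14.4). That summit lay 84.0 kb upstream of Cdk4 and inside Ctdsp2, with 8 protein-coding genes nearer than Cdk4. It was the most distant peak that the 100 kb rule kept. The next doxycycline peak from Cdk4, outside the rule at 274 kb, lay inside Gli1 (8.04-fold, 10 fragments). Cdk4 had 0 untreated peaks.

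Bcl2 had 2 doxycycline peaks and 1 untreated peak. The stronger doxycycline peak (chromosome 1, 106714292 to 106714742) reached 10.8-fold, a −log10 q of 13.6 and 14 fragments (7.65 to 23.5), and ranked 174th by fold. It is the peak over the promoter window printed above, and its nearest untreated summit was 132 kb away. The other (106630089 to 106630357) lay inside the gene, 84.0 kb downstream of the start, at 7.24-fold with 9 fragments (4.12 to 17.1). The untreated peak (106582807 to 106582983) also lay inside the gene, 131 kb downstream of the start. At 3.93-fold and 4 fragments (1.09 to 10.2) it had the smallest pileup of its list, and 95.9% of untreated peaks were at or above its fold.

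**Figure D1:**
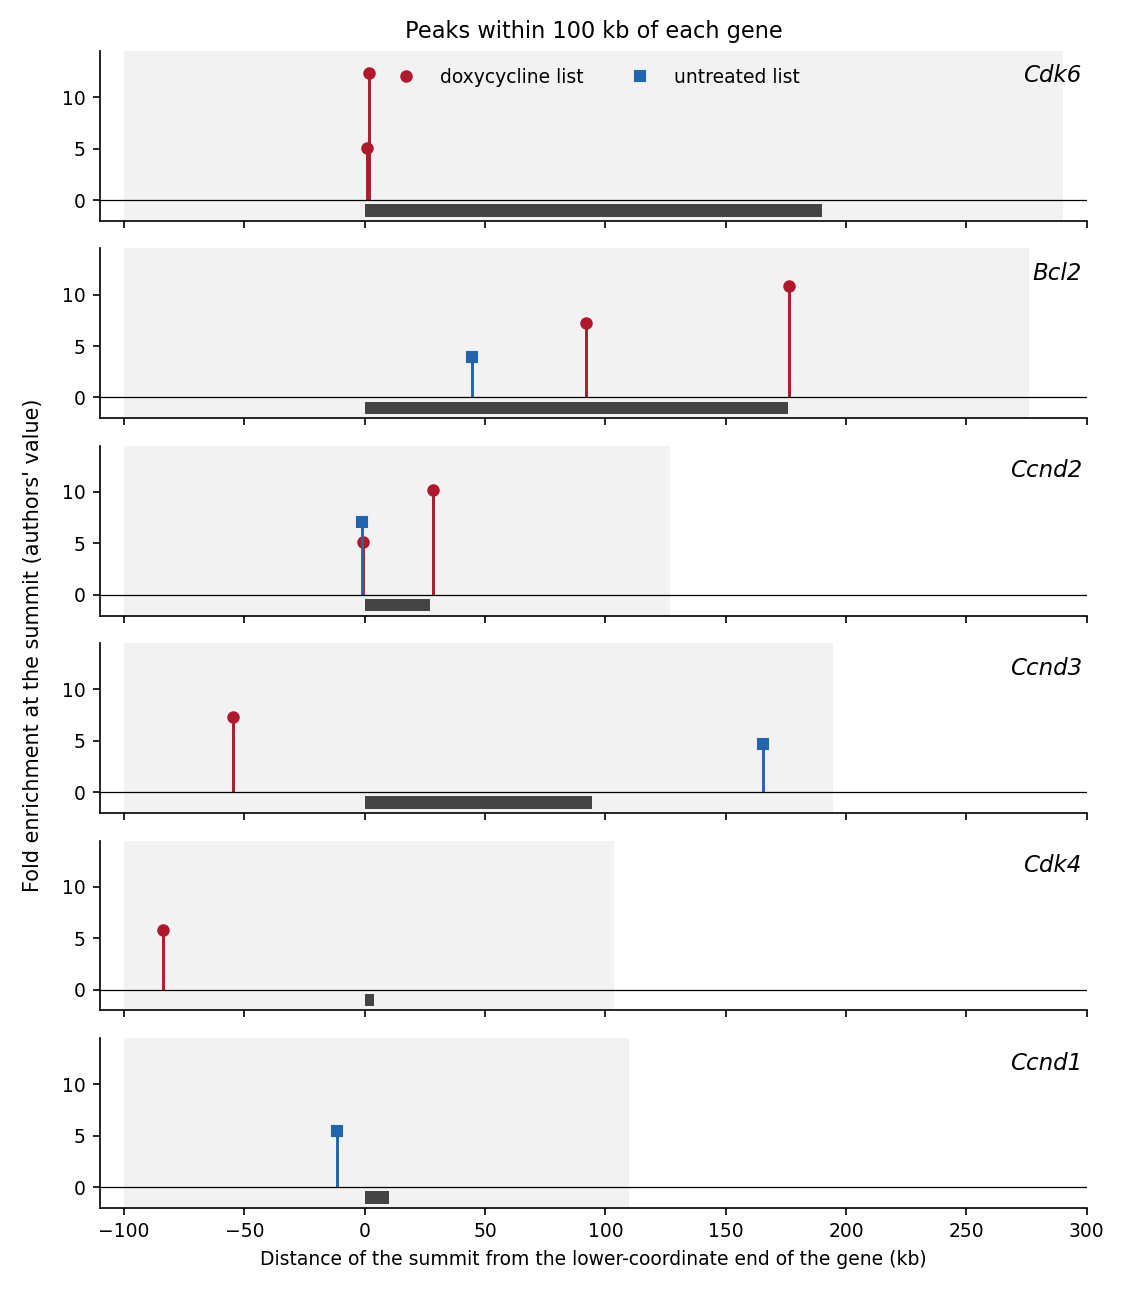
Peaks of the 6 genes along each gene, with the distance of the summit from the lower-coordinate end of the gene in kb on the horizontal axis and the authors' fold enrichment on the vertical axis. Dark bars are the gene intervals, the grey area is the interval with 100 kb on either side, red circles are doxycycline peaks and blue squares untreated peaks. The 12.3-fold, 10.8-fold and 10.2-fold doxycycline peaks of Cdk6, Bcl2 and Ccnd2 stand at gene ends, and those of Ccnd3 and Cdk4 lie 54.6 and 84.0 kb away.

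The 3 strong doxycycline peaks were also wide for their list. Their widths were not compared with those of peaks of like fold alone, so width is not shown to be a separate trait. They measured 555 bp at Cdk6, 451 bp at Bcl2 and 347 bp at Ccnd2, and 1.13%, 2.25% and 3.90% of doxycycline peaks were at least as wide. The other 5 doxycycline peaks were 170 to 269 bp wide, against a list median of 160 bp. In the untreated list the 4 peaks measured 145 to 177 bp, against a median of 153 bp. By fold, 2.99%, 4.78% and 6.18% of doxycycline peaks were at or above the Cdk6, Bcl2 and Ccnd2 peaks, and the list median was 5.50-fold. The strongest untreated peak of the 6 genes, at Ccnd2, had 8.45% of its list at or above it, with a list median of 4.72-fold.

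**Figure D2:**
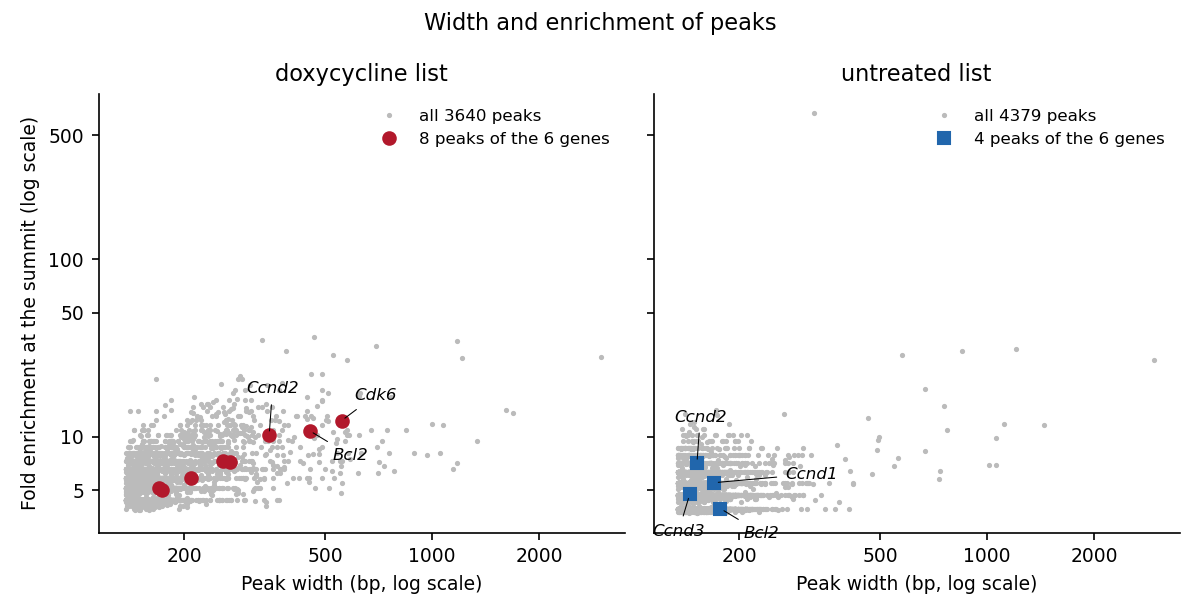
Peak width in bp and the authors' fold enrichment at the summit, both on log scales, for all peaks (grey) and the peaks of the 6 genes (coloured), with the doxycycline list on the left and the untreated list on the right. The Cdk6, Bcl2 and Ccnd2 peaks of 555, 451 and 347 bp lie toward the wide and strong end of the doxycycline list, while the 4 untreated peaks are 145 to 177 bp wide, near the median width of their list, with that of Ccnd2 (7.07-fold, 8.45% of the list at or above it) toward its strong end.

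Few fragments stood behind each peak, and this limits what can be compared. Every pair among the 8 doxycycline peaks had overlapping Poisson intervals, so their order by fold is uncertain, and no pair was tested. The 3 strong peaks would have needed 14.7 (Cdk6), 12.8 (Bcl2) and 12.0 (Ccnd2) fragments to show the same fold over the untreated background of 0.272 fragments. At the lower ends of their own fold intervals they would have needed 8.35, 6.95 and 6.50 fragments. The untreated list reached down to 4 fragments, a count of listed peaks and not of a site missing from the list. The interval of that count ends at 10.2, below the first 3 values and above the second 3. The other 5 doxycycline peaks would have needed 5.39 to 8.30 fragments, inside that interval. With the counting error of both sides, the ranges met for each of the 8. Such an overlap is not a test, so whether their absence from the untreated list is a difference was not tested. The 4 untreated peaks would have needed 4.38 to 8.68 fragments over the doxycycline background of 0.368, where the smallest listed pileup was 5 fragments with an interval of 1.62 to 11.7. The needed values lie inside that interval, and whether the absence of these 4 from the doxycycline list is a difference was not tested either.

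**Figure D3:**
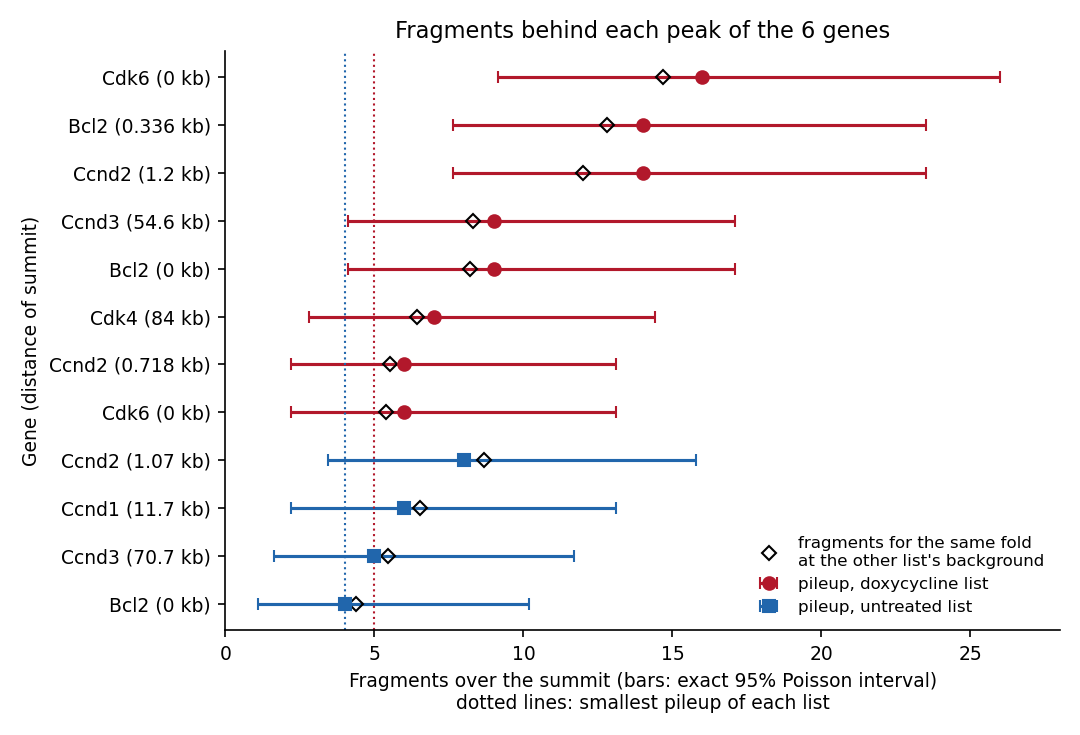
Fragments over each summit of the 12 peaks, with exact 95% Poisson intervals as bars, doxycycline peaks (red) above untreated peaks (blue), and the distance of the summit from the gene in brackets. Open diamonds give the fragments that the same fold would need at the background of the other list, and dotted lines mark the smallest pileup of each list, 5 fragments (red) and 4 (blue). The diamonds, drawn without error, stand at 14.7, 12.8 and 12.0 fragments for the strong Cdk6, Bcl2 and Ccnd2 peaks and at 5.39 to 8.30 for the other doxycycline peaks.

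Counted by gene, 5 of the 6 had a doxycycline peak within 100 kb, against 31.3% of all protein-coding genes, and 4 of the 6 had an untreated peak, against 30.2%. Peaks of both lists were found at Ccnd2, Ccnd3 and Bcl2 (3 of 6, against 10.3%). Cdk4 and Cdk6 had doxycycline peaks and no untreated peak (2 of 6, against 21.1%), and Ccnd1 had the reverse (1 of 6, against 19.9%). Ccnd2, Cdk6 and Bcl2 had 2 doxycycline peaks each (3 of 6, against 7.83% of genes with 2 or more). The same 3 had a doxycycline peak of at least 10-fold, a level chosen after the values were seen, against 3.34% of all genes. Gene length bears on these counts, since it widens the window. The 6 genes had a median length of 60.8 kb, with Cdk6 at 190 kb and Bcl2 at 176 kb, and all protein-coding genes one of 17.2 kb. At the mean density of each list over 2601 Mb, windows of these lengths would hold 2.38 doxycycline peaks, where 8 were counted, and 2.87 untreated peaks, where 4 were counted. The 6 are known Hedgehog-related or cell cycle genes and were chosen with earlier results of these data known. These shares therefore only describe the 6 and were not tested.

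Other genes of the same pathways, 46 in 5 lists, had peaks about as often as genes in general. Doxycycline peaks lay within 100 kb of 13 of the 46 (28.3%) and untreated peaks of 15 (32.6%), with both at 4. Among survival members of the BCL2 family, 2 of 5 had doxycycline peaks and 0 of 5 untreated peaks. Bcl2l1, which encodes BCL-XL, had 3 doxycycline peaks, all inside the gene, the strongest (chromosome 2, 152766469 to 152766727) at 13.8-fold with 18 fragments (10.7 to 28.4). Mcl1, another inhibitor of mitochondrial death, had 5, the strongest (chromosome 3, 95659586 to 95659861) inside the gene at 11.8-fold with 16 fragments (9.15 to 26.0). These 2 were the only genes of the 46 with a doxycycline peak of at least 10-fold, against 3.34% of all protein-coding genes. That level was chosen after the values were seen, and the count was not tested. Of the effectors and BH3-only members, which promote death, 1 of 11 had doxycycline peaks (Bmf, at most 6.58-fold) and 2 of 11 an untreated peak (Bbc3 at 5.50-fold, Bcl2l11 at 3.93-fold).

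On the cell cycle side, 6 of 13 pocket protein and E2F genes had doxycycline peaks and 6 untreated peaks. E2f2 led at 9.54-fold with 13 fragments, from a peak inside Id3 at 27.6 kb. E2f7 followed with 2 peaks of 7.31-fold, then E2f8 (7.10-fold, 6.00 kb away) and Rb1, the retinoblastoma gene (4.89-fold, inside the gene). Of 10 other cyclin, kinase and phosphatase genes 3 had doxycycline peaks, Ccna2 at 6.52-fold, Cdk7 at 5.85-fold and Mnat1 at 5.81-fold, and 2 had untreated peaks, Cdk1 at 6.29-fold and Mnat1 at 3.84-fold. Of 7 genes of kinase inhibitors 1 had doxycycline peaks, Cdkn1a, which encodes p21, at 8.04-fold and 34.1 kb away. Untreated peaks lay near 5 of the 7, against 30.2% of all protein-coding genes, but Cdkn2a and Cdkn2b were counted through 1 shared peak of 4 fragments. Among all 46 genes, the smallest distance to Cdk6 over 3 values (peaks in each list and log2 of the highest doxycycline fold, 0 where there was none) was that of Cdkn1a, at 0.62, followed by E2f7 at 0.75 and Bmf at 0.90. For Ccnd2 it was that of E2f2, at 1.00, followed by Cdkn1a at 1.06 and E2f7 at 1.11. For Bcl2 the same 3 genes came in that order, at 1.02, 1.09 and 1.15.

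**Figure D4:**
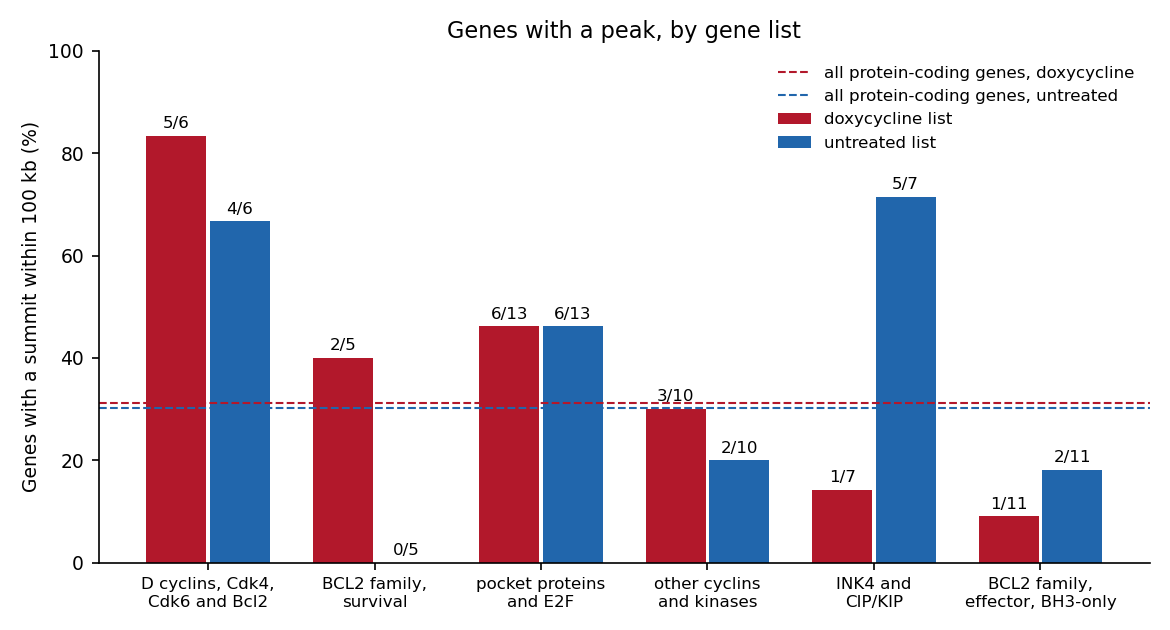
Percent of genes with a summit within 100 kb in the doxycycline list (red bars, left of each pair) and the untreated list (blue bars), for the 6 genes and the 5 lists of related genes, with the counts above the bars. Dashed lines mark all protein-coding genes, at 31.3% and 30.2%. The bars of the 6 genes stand at 5 of 6 and 4 of 6, and those of the survival members of the BCL2 family at 2 of 5 and 0 of 5.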

How the data were processed

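Per the labels, 6 ChIP-seq libraries were made. The submitters' processing notes name MACS2 2.1.1, Bowtie2 2.3.2, SAMtools 1.5 and the build mm10. Not given in the sources used here are the settings, the use of the inputs and any pooling of pull-downs. The authors deposited, for each peak, a fold enrichment (a ratio at the summit), a −log10 p and a −log10 q, and a score equal to 10 times −log10 q without its decimals, which was not used. These values were read within each list only. The exception is the number of fragments that a fold would need at the background of the other list.

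Rows sharing an interval were merged to the best summit (3725 to 3640 doxycycline and 4428 to 4379 untreated). Pileups were worked back from fold and −log10 p, taking the fold as pileup plus 1 over expectation plus 1, and p as the upper tail of a Poisson count. For 99.97% of doxycycline and 100% of untreated peaks the pileup came out whole within 0.01. Intervals cover counting error only. Total depth was not analysed here. The narrowest peaks were 137 and 134 bp, so a short summit can be missing from a list. Background is the most frequent expectation.

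Genes came from RefSeq on GRCm38.p6, and all 6 symbols matched. The members and lists were chosen with earlier results of these data known. Genes named outside the 6 are the up to 4 of each list with the highest doxycycline −log10 q, and those with an untreated peak where a list has 4 or fewer. Density used the span from first to last gene or peak of each chromosome. No genome sequence was used here, so the motif was searched in promoter windows and not in the peaks, as had also been planned. Steps were tested on simulated data. Alternatives are given in the closing section. Scripts ran in Python 3.11.15 with scipy 1.17.1, pandas 2.3.3, numpy 2.4.6 and, for figures, matplotlib 3.10.9.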

Additional observations from a re-analysis of the deposited data

How the results depend on the processing

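No paired analysis was possible because the values come from 1 list a condition, without replicate columns. For the doxycycline list, the 8 peaks became 5 with a −log10 q of at least 5, 5 among the top 1000 peaks and 3 with a pileup of at least 10 fragments. The 5 genes became 3 within 50 kb, 3 within 10 kb, 3 with at least 10 fragments and 3 when a peak counted for its nearest protein-coding gene only, and in each case these were Ccnd2, Cdk6 and Bcl2. For the untreated list, the 4 peaks at 4 genes became 2 at 2 genes within 10 kb and by nearest gene, 1 at 1 gene among the top 1000 and at a −log10 q of 5 or more, and 0 at 0 genes with at least 10 fragments. Fewer peaks or a shorter reach pass by construction. Of the 8 doxycycline peaks, the count that met an untreated peak was 0 by overlap and 1 by summits within 500 bp, at Ccnd2. The same share over the whole list is not given here. The other alternatives moved each count by at most 1.5 times, and the strongest fold of each gene was the same where it kept a peak within 50 kb, within 10 kb, at a −log10 q of 5 or more or by nearest gene (within 250 kb, the untreated peak of Bcl2 at 190 kb had 4.72-fold, above the 3.93-fold one). The motif count stayed at 0 with 1 mismatch. Whether a peak missing from 1 list is a difference between the conditions was not tested.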

Other observations

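Of the 5 kinase inhibitor genes with untreated peaks, 4 are described here, named after their values were seen. Cdkn2a and Cdkn2b, neighbours that encode INK4 proteins, share 1 peak (chromosome 4, 89359539 to 89359680) of 3.78-fold and 4 fragments, at 64.9 and 48.5 kb. Cdkn2c had 4 untreated peaks within 100 kb, the strongest at 7.07-fold with 8 fragments and 18.1 kb away. Only that peak had Cdkn2c as its nearest protein-coding gene. The others had 4930522H14Rik as the nearest (84.3 and 78.6 kb from Cdkn2c) or lay inside Faf1 (13.7 kb). Cdkn1b, which encodes p27, had 2 untreated peaks, the stronger at 7.86-fold with 9 fragments, 51.9 kb away inside Crebl2. These untreated peaks held 4 to 9 fragments.

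At Mcl1 the 2 strongest doxycycline peaks, at 11.8-fold and 10.9-fold with 16 and 14 fragments, lay next to each other inside the gene. In Bcl2l1 the promoter window of 300 bases (chromosome 2, 152830668 to 152830967) lay wholly under a 6.37-fold doxycycline peak 781 bp wide, and it held 0 exact GLI consensus matches and 1 with a mismatch.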
